A study of Mus musculus with 2 samples.

Results

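The Schlafen genes measured here were *Slfn1*, *Slfn2*, *Slfn3*, *Slfn4*, *Slfn5*, *Slfn8* and *Slfn9*, 7 of the 31053 genes counted in the libraries. They were taken by symbol, as listed family members, and the rule used no measured value, although the family was proposed with earlier results of these data known. Of the 10 rows whose symbol begins with Slfn, the other 3 were *Slfn14*, *Slfnl1* and *Slfn5os*, and these held no UMI in either class of cells of either library apart from 1 UMI of *Slfn5os* in RC.

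Marrow was taken from F1 hybrid C57BL/6;Balb/c mice that had received 300 rads alone (radiation control, RC) or 300 rads and 65000000 B6 splenocytes (severe aplastic anemia, SAA), so irradiation was common to both groups. Live cells sorted as CD11b+Ly6C+Ly6G- were pooled from 3 mice into 1 library per condition, and each unique molecular identifier (UMI) counted stands for 1 captured transcript. With 1 library per condition there were no replicates, no test between RC and SAA was possible, and every interval below is a 95% interval of counting error alone. Whether a cell of the SAA library came from the host or from the infused splenocytes was not separated, and the labels give neither the age of the mice nor the day of harvest.

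Schlafen proteins are vertebrate proteins best known as interferon-inducible restrainers of growth and of viral protein synthesis. All share a core with nuclease-like folds that in some members acts on transfer RNA. The mouse family is usually divided into short members (*Slfn1*, *Slfn2*), intermediate members (*Slfn3*, *Slfn4*) and long members with a helicase-like extension (*Slfn5*, *Slfn8*, *Slfn9*). Several are regulated as haematopoietic cells leave quiescence or mature, which is why their level was read here by cell class and by cell cycle.

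Barcodes with at least 1000 detected genes were kept, 662 of 798 in RC and 729 of 825 in SAA. A cell was called monocyte-like where its UMIs of *Csf1r*, *Ccr2*, *F13a1*, *Ms4a6c* and *Ly86* exceeded those of 8 granule or granulocyte genes (*Camp*, *Ngp*, *Fcnb*, *Cebpe*, *Elane*, *Mpo*, *Prtn3* and *Ctsg*), and granulocyte-like where the reverse held. This gave 342 monocyte-like and 318 granulocyte-like cells in RC, and 285 and 421 in SAA. Depth differed in the monocyte-like class, where the median cell had 3347.5 UMIs in RC and 6082 in SAA, whereas the granulocyte-like medians were 6787.5 and 6849. Levels are UMIs of a gene per 1000000 UMIs of the class (CPM). They count transcript molecules at the 5′ end and were not divided by transcript length, so they are compared between cells and not between genes. A lower CPM of a class cannot tell fewer expressing cells from less RNA per cell, for which the shares of cells are given further on. The SAA library also held 40 barcodes with at least 3 distinct T or NK markers, 10 of them in the monocyte-like and 8 in the granulocyte-like class, against 1 such barcode in RC. The libraries shared 1 barcode sequence.

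The 7 genes lie in 1 cluster of 263806 bases on chromosome 11 (GRCm38, the build called mm10), chr11:82951349-83215154. In the GENCODE annotation *Slfn5* comes first on the plus strand (chr11:82951349-82964840), followed by *Slfn9* (chr11:82978390-82991830) and *Slfn8* (chr11:83002158-83020810) on the minus strand. *Slfn2* (chr11:83065112-83070678), *Slfn1* (chr11:83116849-83122670), *Slfn4* (chr11:83175186-83190216) and *Slfn3* (chr11:83191330-83215154) follow on the plus strand. The neighbours *Slfn8* and *Slfn9* shared part of their sequence, with 9.30% of the 50-base windows of *Slfn8* transcripts also found in *Slfn9*. *Slfn4* shared 6.28% of its windows with *Slfn3*, and *Slfn2* and *Slfn1* shared 4.27% and 0.606% of theirs with *Slfn4*. Reads from such windows could have been credited to either gene, and how they were handled is not given in the sources used here, so values of these 6 genes are uncertain to that extent. *Slfn5* shared no window with another member.

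The sequence before the start site is shown for the 6 members with at least 100 UMIs, because the letters divide them into groups that the selection did not use. RefSeq promoters (GRCm38.p6) were found for all 7. The interferon-stimulated response element, written here as GAAANNGAAA, was looked for on both strands of the 250 bases before each start, and 2.98% of 32851 promoters of that length held it. It was present in *Slfn5*, *Slfn8* and *Slfn9*. The 100 bases before the start of *Slfn8* (chr11:83020811-83020910, minus strand) and of *Slfn9* (chr11:82991831-82991930, minus strand) are given 5′ to 3′ with the element in capitals, which in both reads as its complement 48 and 45 bases before the start.

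Slfn8: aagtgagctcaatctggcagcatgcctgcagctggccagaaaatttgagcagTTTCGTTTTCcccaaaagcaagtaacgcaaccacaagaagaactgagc

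Slfn9: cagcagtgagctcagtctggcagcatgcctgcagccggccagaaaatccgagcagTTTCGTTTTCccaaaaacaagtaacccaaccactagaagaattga

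Over the full 250 bases, 206 of 242 aligned positions of these promoters were identical (85.1%). *Slfn8* has a further RefSeq start, and the element began 136 bases before that one. In *Slfn5* the element began 155 bases before the start, and the stretch shown (chr11:82951885-82951984, plus strand) ends 118 bases before it because an exon of another transcript of the gene begins there. These distances are from the RefSeq start at 82952102. That start, the element and the stretch lie inside the gene in GENCODE, which begins at 82951349, and the sequence before that base was not searched.

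Slfn5: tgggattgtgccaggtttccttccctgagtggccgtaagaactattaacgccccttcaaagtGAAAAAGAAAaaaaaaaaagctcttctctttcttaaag

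The gamma-activated sequence TTCNNNGAA, which 7.02% of promoters held, was found in none of the 7. *Slfn1*, *Slfn2*, *Slfn3* and *Slfn4* held no GAAANNGAAA, but each carried ACTTCC, whose complement holds the GGAA core that ETS factors bind and which 19.7% of promoters held. On reading these promoters the longer run ACTTCCTGG was seen in the same 4 genes, between 42 bases (*Slfn3*) and 74 bases (*Slfn1*) before the start. It occurs in 0.700% of promoters, and because it was picked after the sequences were read, its count is a description only. It is in capitals in *Slfn1* (chr11:83116720-83116819), *Slfn2* (chr11:83065012-83065111) and *Slfn4* (chr11:83175086-83175185), all on the plus strand. The *Slfn1* distance is from the RefSeq start at 83116820, which lies before the first base of the gene in GENCODE.

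Slfn1: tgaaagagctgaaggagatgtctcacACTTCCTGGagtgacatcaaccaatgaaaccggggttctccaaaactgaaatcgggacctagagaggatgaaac

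Slfn2: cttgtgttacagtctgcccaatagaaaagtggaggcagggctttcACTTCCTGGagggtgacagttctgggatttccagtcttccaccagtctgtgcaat

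Slfn4: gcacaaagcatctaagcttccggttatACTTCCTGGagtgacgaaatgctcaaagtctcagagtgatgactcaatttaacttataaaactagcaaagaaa

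A match of letters is not a site of binding, and its absence from these windows says nothing of elements elsewhere. The granulocyte-like SAA to RC ratios given below ran from 1.82 to 16.9 in *Slfn5*, *Slfn8* and *Slfn9*. In *Slfn1*, *Slfn2*, *Slfn3* and *Slfn4* they ran from 1.15 to 25.6, so the ranges of these groups overlapped. A relation of the letters to the ratios was not tested.

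Comparing SAA with RC asks how the family differed when marrow failure was added to irradiation. In granulocyte-like cells 5 of the 7 members (*Slfn1*, *Slfn2*, *Slfn4*, *Slfn5* and *Slfn8*) were at least 2-fold higher in SAA, where 6.63% of the 8812 genes with at least 20 UMIs were that much higher. None of the 7 was at least 2-fold lower, against 5.12% of all genes. The median log2 ratio of the members was 1.94 there, beside 0.045 over all genes. In monocyte-like cells 2 of 7 (*Slfn1* and *Slfn3*) were at least 2-fold higher, against 7.8% of 8662 genes, and 0 were at least 2-fold lower, against 8.67%. The members' median log2 ratio was 0.78 in that class, and that of all genes was -0.064.

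**Figure D1:**
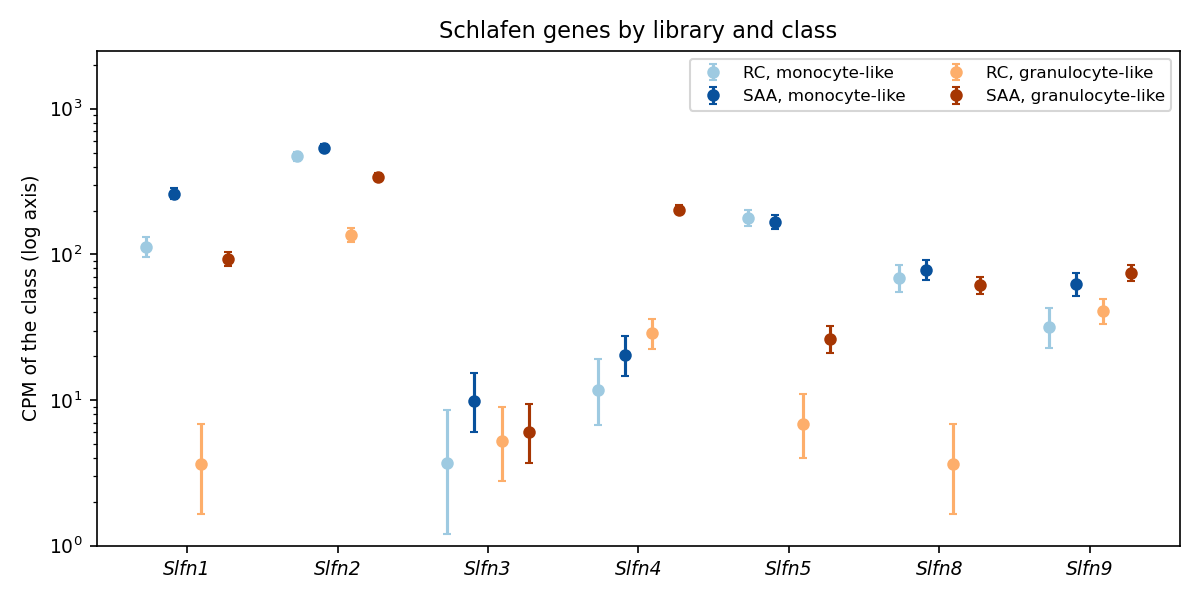
CPM of each Schlafen gene (vertical log axis) in monocyte-like and granulocyte-like cells of the RC and SAA libraries, as points with exact Poisson 95% intervals, 1 library per condition. The RC granulocyte-like points of *Slfn1* and *Slfn8* both lie at 3.63 CPM, while the SAA points of the same class reach 92.9 and 61.2.

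*Slfn1*, a short member named for its restraint of thymocyte growth, was among the members with the widest gaps, and its interval overlapped that of *Slfn8* given further on. In granulocyte-like cells 9 UMIs were counted in RC (3.63 CPM, interval 1.66 to 6.89) and 308 in SAA (92.9 CPM, 82.8 to 103.9), a ratio of 25.6 (13.3 to 56.5). In monocyte-like cells it was already 113 CPM in RC (95.5 to 132) and reached 260 in SAA (239 to 283), a ratio of 2.31 (1.93 to 2.79). The SAA to RC ratio of granulocyte-like cells was thus 11.1 times that of monocyte-like cells (Wald interval of the 4 counts, 5.57 to 22.0). Monocyte markers moved with it, since the 5 genes of the class rule summed to 69.0 CPM in RC and 151 in SAA granulocyte-like cells, beside 2873 in the SAA monocyte-like class, and their part in the *Slfn1* ratio was not tested. The granulocyte-like ratio ranged from 18.7 to 75.6 over the alternatives run, with the highest value from cells with at least 1500 genes and at most 10% mitochondrial UMIs, and was 27.6 in cells where 1 marker sum clearly exceeded the other.

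*Slfn2*, the short member whose loss makes T cells and monocytes leave quiescence and die, was the member with a UMI in most cells. Its granulocyte-like level was 136 CPM in RC (122 to 151) and 339 in SAA (319 to 359), a ratio of 2.49 (2.20 to 2.82). In monocyte-like cells it was 470 CPM in RC (435 to 508) and 536 in SAA (505 to 569), a ratio of 1.14 (1.03 to 1.26). The ratios of the classes differed 2.19-fold (1.87 to 2.56). *Slfn2* thus had a granulocyte-like difference in SAA with little difference among monocyte-like cells.

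*Slfn4*, an intermediate member of myeloid cells that is induced during macrophage activation, was the only one of the 7 that was at least 2-fold higher in granulocyte-like than in monocyte-like cells in both libraries. It measured 28.6 CPM in RC granulocyte-like cells (22.4 to 36.1) and 203 in SAA (188 to 219), a ratio of 7.09 (5.55 to 9.19) from 71 and 673 UMIs. In monocyte-like cells it was 11.8 CPM in RC (6.73 to 19.1) and 20.2 in SAA (14.5 to 27.4), and the ratio of 1.72 had an interval from 0.942 to 3.28 that includes 1. The 8 late neutrophil markers summed to 1472 CPM in RC and 11265 in SAA monocyte-like cells, with 2 of the 8 at 0 in each library. Only 3 of the 8 had at least 20 UMIs there, of which 2 were at least 2-fold higher in SAA, against 7.8% of genes, and 0 lower. The summed RNA was thus higher in the SAA class, and its part in the monocyte-like *Slfn4* value was not tested. In granulocyte-like cells the same sum was 211112 CPM in RC and 176334 in SAA.

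*Slfn3*, the other intermediate member, known from gut epithelium, was scarce. Its 5 UMIs in RC and 20 in SAA monocyte-like cells gave 3.68 and 9.86 CPM and a ratio of 2.68 whose interval, 0.976 to 9.13, includes 1. In granulocyte-like cells 13 and 20 UMIs gave 5.24 and 6.03 CPM, a ratio of 1.15 (0.545 to 2.52). No difference in *Slfn3* was detectable at this depth.

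*Slfn5*, a long member of the nucleus, was near equal in the monocyte-like classes as a whole, at 177 CPM in RC (156 to 201) and 166 in SAA (149 to 185), a ratio of 0.936 (0.791 to 1.11). In granulocyte-like cells it measured 6.86 CPM in RC (3.99 to 10.98) and 26.2 in SAA (21.02 to 32.4), from 17 and 87 UMIs, a ratio of 3.83 (2.26 to 6.87). The ratio of granulocyte-like cells was 4.09 times that of monocyte-like cells (2.37 to 7.05).

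*Slfn8*, another long member, repeated that contrast at a greater size. Only 9 UMIs were found in RC granulocyte-like cells (3.63 CPM, 1.66 to 6.89) and 203 in SAA (61.2 CPM, 53.1 to 70.3), a ratio of 16.9 (8.71 to 37.4). Monocyte-like cells held 68.5 CPM in RC (55.3 to 83.9) and 78.4 in SAA (66.7 to 91.6), a ratio of 1.14 (0.881 to 1.495). The ratios of the classes differed 14.7-fold (7.21 to 30.1).

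*Slfn9*, the neighbour of *Slfn8* on the chromosome, did not show that contrast. Its granulocyte-like level was 40.7 CPM in RC (33.2 to 49.5) and 74.2 in SAA (65.2 to 84.1), and its monocyte-like level 31.7 in RC (22.9 to 42.6) and 62.1 in SAA (51.7 to 74.0). The ratios were 1.82 (1.44 to 2.32) and 1.96 (1.38 to 2.84), and their quotient of 0.928 had an interval from 0.612 to 1.41. The monocyte-like ratio was 1.28 with equal shares of cells per cell-cycle bin and 3.11 on thinned cells. In non-cycling cells alone it was 1.17 (0.481 to 2.78), from 14 UMIs in RC and 11 in SAA. In cycling cells alone it was 1.98 (1.25 to 3.26), from 23 and 100 UMIs. Between these bins, at 2 to 9 cell-cycle UMIs, it was 0.496 (0.182 to 1.56), from 6 and 15 UMIs. *Slfn9* was higher in cycling cells, which were 22.8% of the RC and 38.9% of the SAA class. The part of these shares in the ratio was not tested. *Slfn8* and *Slfn9*, which share most of their promoter sequence and the same 10-letter element, therefore differed in how their granulocyte-like levels compared between RC and SAA, with intervals of 8.71 to 37.4 and 1.44 to 2.32 that do not overlap.

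**Figure D2:**
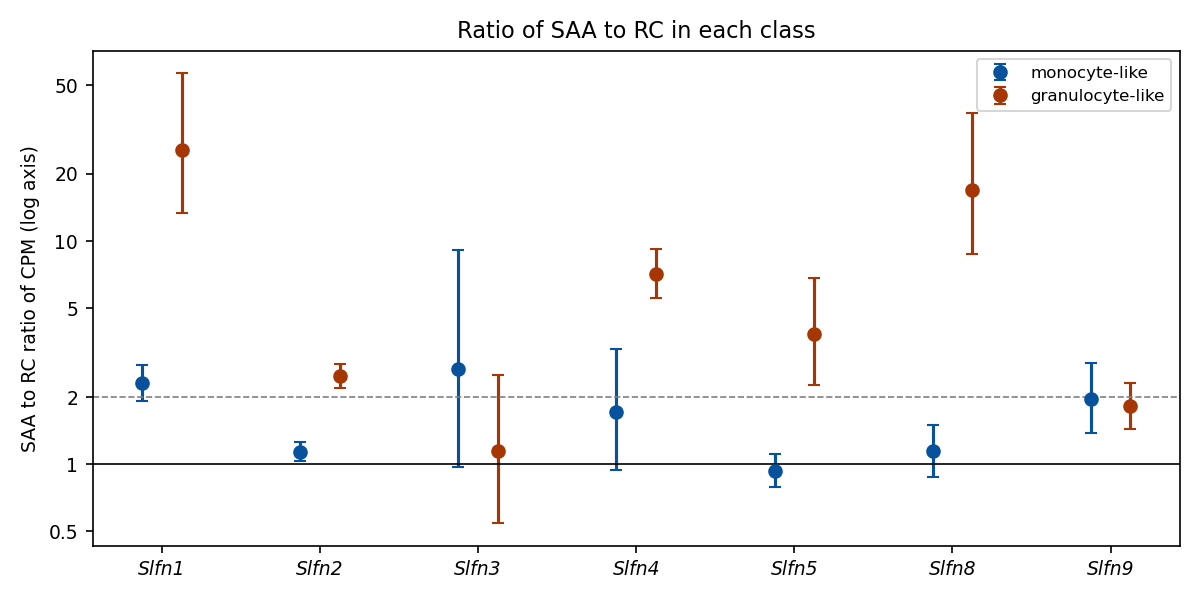
SAA to RC ratio of CPM for each Schlafen gene (vertical log axis) in monocyte-like and granulocyte-like cells, with exact conditional binomial 95% intervals. The solid line is at 1 and the dashed line at 2. Granulocyte-like points of *Slfn1* (25.6), *Slfn8* (16.9), *Slfn4* (7.09), *Slfn5* (3.83) and *Slfn2* (2.49) lie above their monocyte-like points with no overlap of intervals, and those of *Slfn3* and *Slfn9* do not.

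Leaving out the barcodes with T or NK, B or erythroid markers changed these ratios little, to 25.8 for *Slfn1*, 17.1 for *Slfn8* and 7.16 for *Slfn4* in granulocyte-like cells. All 14 T or NK markers were detected in SAA in both classes, whereas 9 of them were at 0 in RC monocyte-like and 11 in RC granulocyte-like cells. Summed, these markers were 45.6 CPM in RC and 233 in SAA monocyte-like cells, and 412 and 383 in granulocyte-like cells. The RC granulocyte-like sum thus came from the few markers not at 0. Of the 12 markers with enough UMIs in granulocyte-like cells, 10 were at least 2-fold higher in SAA, against 6.63% of genes, and 0 lower. In monocyte-like cells 7 of 8 were higher, against 7.8%, and 0 lower. A pool at 0 was set to 3 UMIs for these counts.

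Within a library, the question was in which class each member was found. In RC, 4 of the 6 members with enough UMIs (*Slfn1*, *Slfn2*, *Slfn5* and *Slfn8*) were at least 2-fold higher in monocyte-like than in granulocyte-like cells, against 23.5% of 8695 genes, and *Slfn4* was at least 2-fold lower, against 9.73%. The RC ratios of monocyte-like to granulocyte-like cells were 31.0 (15.9 to 69.2) for *Slfn1*, 25.9 (15.8 to 45.2) for *Slfn5*, 18.9 (9.52 to 42.5) for *Slfn8* and 3.46 (3.03 to 3.96) for *Slfn2*. In SAA only *Slfn1* and *Slfn5* of 7 remained at least 2-fold higher, against 20% of 9084 genes, and *Slfn4* was again lower, against 8.99%. The SAA ratios were 2.80 (2.43 to 3.24) for *Slfn1*, 6.33 (4.99 to 8.11) for *Slfn5*, 1.58 (1.45 to 1.72) for *Slfn2* and 1.28 (1.03 to 1.58) for *Slfn8*. The monocyte-like excess of these 4 genes was smaller in SAA than in RC, as the ratios of ratios above state. For *Slfn4* the monocyte-like level was 0.411 times the granulocyte-like level in RC (0.223 to 0.715) and 0.0996 times in SAA (0.0708 to 0.137). *Slfn9* did not separate the classes, with 0.777 in RC (0.531 to 1.12) and 0.837 in SAA (0.670 to 1.04).

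Shares of cells with a UMI were compared after each cell was thinned to 2600 UMIs, which left out 76 monocyte-like and 1 granulocyte-like cell of RC, and 18 and 8 of SAA. Of the monocyte-like cells left out, 73 in RC and 14 in SAA were non-cycling as defined below. Thinning thus changed the mix of cells in that class as well as their depth. *Slfn1* was found in 1.26% of RC granulocyte-like cells (4 of 317, Clopper-Pearson interval 0.345 to 3.20) and 21.8% of SAA cells (90 of 413, 17.9 to 26.1). Before thinning the shares came from 7 of 318 and 150 of 421 cells. The 308 *Slfn1* UMIs of SAA granulocyte-like cells thus came from 35.6% of these cells before thinning, with no more than 8 in any cell. They were spread unevenly, since the decile of cells with the most *Slfn1* UMIs held 53.2% of them.

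*Slfn4* was seen in 8.52% of RC granulocyte-like cells (5.69 to 12.2) and 35.4% of SAA cells (30.7 to 40.2). *Slfn8* was seen in 0.631% (0.0765 to 2.26) and 11.9% (8.91 to 15.4), and *Slfn2* in 31.2% (26.2 to 36.6) and 57.4% (52.5 to 62.2). In monocyte-like cells the share with *Slfn1* was 25.6% in RC (20.4 to 31.2) and 48.3% in SAA (42.2 to 54.5), while that with *Slfn8* was 16.9% (12.6 to 22.0) and 18.4% (13.9 to 23.5).

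Among monocyte-like cells, 82.7% of those from RC and 91.4% of those from SAA held at least 1 member. In granulocyte-like cells this share was 45.4% in RC (39.9 to 51.1) and 79.9% in SAA (75.7 to 83.7). At least 3 different members were found in 0.946% of the RC and 19.4% of the SAA granulocyte-like cells, and the median was 0 and 1 members per cell.

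As a guide to RNA free in the suspension, the 30 SAA barcodes with T or NK markers that could be thinned were read the same way, although lymphocytes can express Schlafen genes themselves. Among them 3.33% held *Slfn1* (0.0844 to 17.2), 3.33% held *Slfn4* and *Slfn5* each, 23.3% held *Slfn2* (9.93 to 42.3) and 16.7% held *Slfn8* (5.64 to 34.7), with a median of 4652.5 UMIs before thinning. Of the 40 such barcodes, 18 also fell in one of the classes. Among the 15 thinned barcodes of neither class the upper bounds were 21.8% for *Slfn1* (0 cells), 55.1% for *Slfn2* (4 cells) and 21.8% for *Slfn4* (0 cells). The SAA granulocyte-like interval of *Slfn4* (30.7 to 40.2) lay above the upper bounds of both sets. Those of *Slfn2* (52.5 to 62.2) and *Slfn1* (17.9 to 26.1) lay above the bounds of the 30 barcodes and overlapped the intervals of the 15. The granulocyte-like share of *Slfn8* (11.9%) was below the T or NK-like share, and that of *Slfn5* (5.57%) lay within the T or NK-like interval for it. How much of any member's share was free RNA was not tested. Within SAA, *Slfn4* was 10.0 times as high in granulocyte-like as in monocyte-like cells and *Slfn5* was 0.158 times as high.

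**Figure D3:**
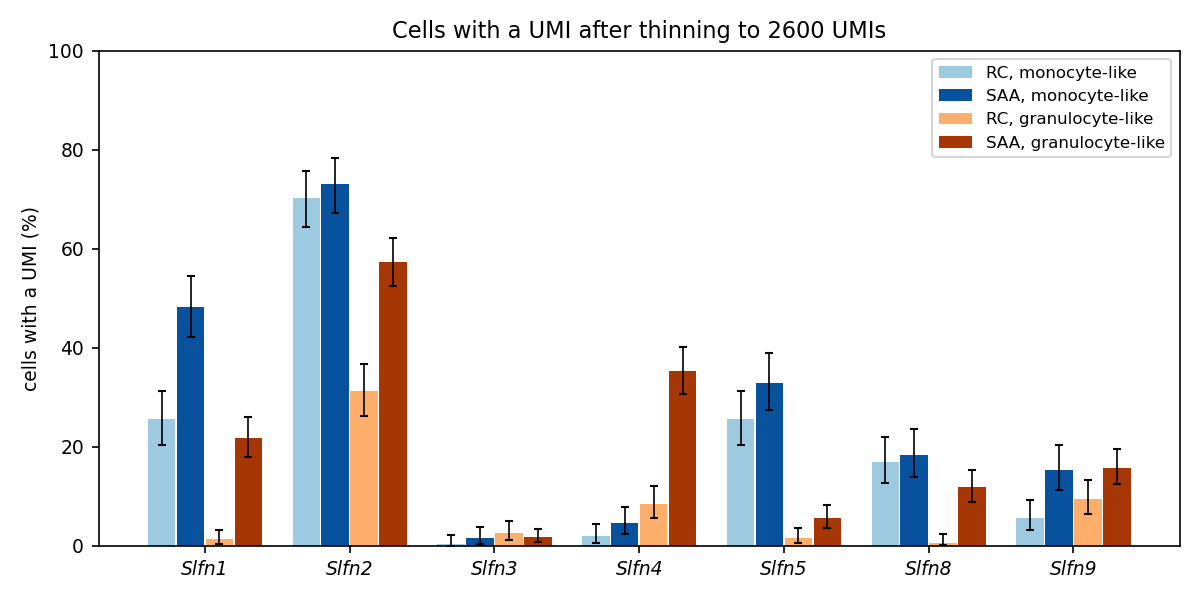
Percent of cells with at least 1 UMI of each Schlafen gene after thinning every cell to 2600 UMIs (266 and 267 monocyte-like and 317 and 413 granulocyte-like cells of RC and SAA), as bars with exact Clopper-Pearson 95% intervals. The SAA granulocyte-like bars of *Slfn1* (21.8%), *Slfn2* (57.4%), *Slfn4* (35.4%) and *Slfn8* (11.9%) stand above their RC bars, while *Slfn3* stays under 3% throughout.

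The relation to the cell cycle was read from the summed UMIs of *Top2a*, *Mki67*, *Stmn1* and *Pclaf*, with at least 10 taken as cycling and at most 1 as non-cycling. In RC 243 of the 342 monocyte-like cells were non-cycling and 78 cycling, against 109 and 111 of 285 in SAA. Granulocyte-like cells were mostly cycling, 218 of 318 in RC and 289 of 421 in SAA, and only 21 and 37 were non-cycling. The UMI sum depends on depth, so bins differ in depth as well as in cycling, and among RC monocyte-like cells the median was 2903 UMIs in the non-cycling and 6016.5 in the cycling bin.

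Members lower in cycling cells were found in each of the 4 pools of library and class. In RC monocyte-like cells *Slfn1*, *Slfn5* and *Slfn8*, 3 of the 5 with enough UMIs, were at least 2-fold lower in cycling than non-cycling cells, against 10.1% of genes. In SAA monocyte-like cells *Slfn4* and *Slfn5*, 2 of 6, were lower, against 6.96%. In granulocyte-like cells the count was 1 of 3 in RC (*Slfn4*), against 10.5%, and 4 of 6 in SAA (*Slfn1*, *Slfn2*, *Slfn4* and *Slfn5*), against 10.2%. On cells thinned to the same depth the granulocyte-like counts were 0 in RC and 2 in SAA. The bins were then set from the thinned counts with the same limits, so they held other cells. How many members had enough UMIs in them is not given here, so these counts do not isolate depth. The share of all genes at that depth is not given here to set beside them.

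*Slfn9* went the other way and was the member at least 2-fold higher in cycling cells in all 4 pools, where the share of genes that much higher was 12% and 13.5% in RC and SAA monocyte-like cells and 14.2% and 20.3% in RC and SAA granulocyte-like cells. It measured 18.2 CPM in non-cycling and 45.1 in cycling RC monocyte-like cells, a ratio of 2.48 (1.22 to 5.22), and 21.3 and 89.2 in SAA, a ratio of 4.196 (2.25 to 8.68). In granulocyte-like cells each non-cycling pool held a single *Slfn9* UMI, so the ratios there, 3.97 in RC (0.690 to 159) and 11.7 in SAA (2.08 to 465), are loose. *Slfn8*, its neighbour, was lower in cycling RC monocyte-like cells, at 93.4 against 33.3 CPM, a ratio of 0.357 (0.197 to 0.612).

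*Slfn5* had the lowest cycling to non-cycling ratio of the members in monocyte-like cells of both libraries. Its intervals overlapped those of *Slfn4* in both, and that of *Slfn1* in RC. In RC it was 305 CPM in non-cycling cells (267 to 346) and 7.84 in cycling cells (2.14 to 20.1), from 235 and 4 UMIs, a ratio of 0.0257 (0.00695 to 0.0668). In SAA it was 329 CPM (281 to 382) and 76.7 (61.4 to 94.8), a ratio of 0.234 (0.178 to 0.304). The SAA to RC ratio of *Slfn5* was accordingly 1.08 in non-cycling (0.880 to 1.32) and 9.79 in cycling monocyte-like cells (3.69 to 36.7), whose intervals do not overlap. Cycling cells, in which *Slfn5* was lowest, were 38.9% of the SAA and 22.8% of the RC monocyte-like class. With both libraries weighted to the same share of cells in each bin, the ratio over the class was 1.33.

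*Slfn1* behaved alike, with 182 CPM in non-cycling and 21.6 in cycling RC monocyte-like cells, and 348 and 194 in SAA. Its SAA to RC ratio was 1.92 (1.53 to 2.41) in non-cycling and 8.98 (4.92 to 18.3) in cycling cells, a 4.69-fold difference (2.46 to 8.93). For *Slfn8* the ratios were 0.952 (0.643 to 1.40) and 2.09 (1.22 to 3.77), a 2.19-fold difference (1.15 to 4.17). *Slfn2* showed no such gap, with 1.17 (1.01 to 1.36) and 1.33 (1.13 to 1.58), and a quotient of 1.13 (0.909 to 1.41).

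**Figure D4:**
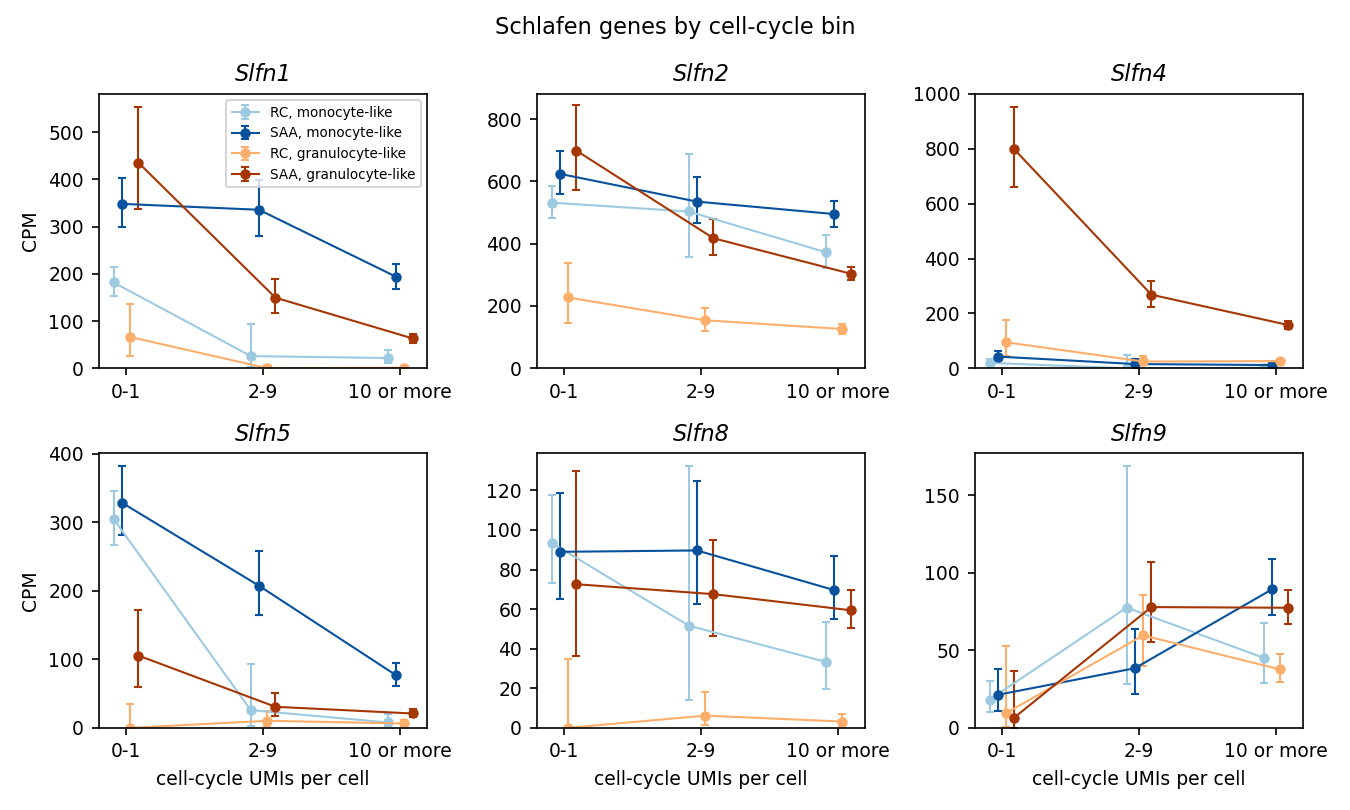
CPM of 6 Schlafen genes (vertical axes from 0, scaled per panel) in cells with 0 to 1, 2 to 9 or at least 10 UMIs of the 4 cell-cycle genes, for both classes of RC and SAA, with exact Poisson 95% intervals. From the first to the last bin, *Slfn5* of RC monocyte-like cells goes from 305 to 7.84 CPM, *Slfn4* of SAA granulocyte-like cells from 798 to 157, and *Slfn9* of SAA monocyte-like cells from 21.3 to 89.2.

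Among granulocyte-like cells the SAA to RC difference was present in the cycling majority. In cycling cells the ratios were 18.7 for *Slfn8* (8.40 to 51.7), 6.06 for *Slfn4* (4.50 to 8.32), 3.29 for *Slfn5* (1.74 to 6.75), 2.41 for *Slfn2* (2.08 to 2.80) and 2.06 for *Slfn9* (1.56 to 2.73). *Slfn1* had 2 UMIs in RC and 169 in SAA cycling cells, a ratio of 59.6 with an interval from 16.2 to 496. These 6 members were thus higher in SAA among cycling cells as well.

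*Slfn4* was nevertheless most abundant in the 37 non-cycling SAA cells, at 798 CPM (662 to 954), against 94.7 in the 21 of RC (45.4 to 174), a ratio of 8.43 (4.43 to 18.0). After thinning, 25 of 35 such SAA cells held a *Slfn4* UMI. In cycling SAA cells its level was 0.197 times that in non-cycling cells (0.161 to 0.243).

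Granulocyte-like cells were further divided by granule genes into early cells, in which *Elane*, *Mpo*, *Prtn3* and *Ctsg* exceeded *Camp* and *Ngp*, and late cells, with 51 and 267 cells in RC and 33 and 388 in SAA. Late refers to these granule genes alone, and 187 of the late RC cells and 261 of the late SAA cells were cycling. *Slfn4* was higher in the late cells, with 5.24 CPM in early and 35.7 in late RC cells, and 10.5 and 235 in SAA. The SAA ratio of late to early was 22.4 (9.55 to 69.2) and the RC ratio 6.81 (2.23 to 33.8). *Slfn5* leaned the other way in SAA, with 44.1 CPM in early and 23.2 in late cells, a ratio of 0.527 (0.318 to 0.906), and *Slfn9* did not differ detectably, at 0.838 (0.597 to 1.20).

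In late cells alone the SAA to RC ratios were 23.4 for *Slfn1* (11.7 to 54.8), 17.4 for *Slfn8* (8.26 to 43.8), 6.60 for *Slfn4* (5.14 to 8.60), 3.69 for *Slfn5* (1.98 to 7.51) and 2.26 for *Slfn2* (1.98 to 2.58). In early cells *Slfn2* had a ratio of 3.71 (2.55 to 5.49) and *Slfn5* one of 5.05 (1.85 to 17.2), so these members were higher in early cells too. *Slfn4*, with 3 and 5 UMIs in early cells, gave a ratio of 2.01 (0.390 to 12.9).

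The family was set beside genes of the interferon response. Of 30 measured type I interferon-stimulated genes, 19 were at least 2-fold higher and 1 at least 2-fold lower in SAA monocyte-like cells, with a median log2 ratio of 1.41, beside 7.8% and 8.67% of all genes and a median of -0.064. In granulocyte-like cells 26 of 27 were higher and none lower, with a median of 3.82, beside 6.63% and 5.12% of all genes and a median of 0.045. The most abundant were *Ifi27l2a*, *Bst2*, an antiviral tether, and *Zbp1*, a nucleic acid sensor. *Bst2* measured 8.87 CPM in RC and 264 in SAA granulocyte-like cells, a ratio of 29.8 (19.5 to 47.8), and 110 and 435 in monocyte-like cells, a ratio of 3.97 (3.33 to 4.75). *Zbp1* had 2 UMIs in RC granulocyte-like cells and 454 in SAA, and a monocyte-like ratio of 6.09 (4.72 to 7.97). *Ifi27l2a* had ratios of 14.2 (8.71 to 24.6) in granulocyte-like and 1.58 (1.497 to 1.66) in monocyte-like cells. Like these 3 genes, *Slfn1*, *Slfn2*, *Slfn4*, *Slfn5* and *Slfn8* had their larger ratios in granulocyte-like cells, but the monocyte-like ratios of *Slfn5* and *Slfn8* were near 1.

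Of 14 genes for interferon receptors and signalling, 5 were at least 2-fold higher and 1 lower in monocyte-like cells, and 6 were higher and 1 lower in granulocyte-like cells, with median log2 ratios of 0.018 and 0.41. Over all genes 7.8% were higher and 8.67% lower in monocyte-like cells, and 6.63% and 5.12% in granulocyte-like cells. *Ifngr1*, a chain of the interferon gamma receptor, was lower in SAA, with ratios of 0.386 (0.329 to 0.451) in monocyte-like and 0.490 (0.418 to 0.573) in granulocyte-like cells. *Jak1*, a kinase of these receptors, measured 0.773 (0.643 to 0.930) and 1.36 (1.17 to 1.59).

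For each member with at least 100 UMIs, the genes with the most similar pattern were taken from 7103 genes over the 12 pools of library, class and cell-cycle bin, which share libraries and depth, so that the correlations are descriptions. *Slfn1* was most like *H2-T23* (Pearson r = 0.92), *Rnf114* (0.91) and *Acsl4* (0.91). *Slfn2* was most like *Irf9* (0.96), a subunit of the complex that binds the interferon-stimulated response element, *Xdh* (0.96) and *Pirb* (0.95). *Slfn4* went with *B4galt3* (0.95), *Cxcr2* (0.95), a chemokine receptor of mature neutrophils, and *Mxd1* (0.95), a MYC antagonist of differentiating cells.

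*Slfn5* was most like *Fcgr3* (0.97), an Fc receptor chain, *Arap1* (0.96) and *Vcpip1* (0.95). *Slfn8* was most like *Samhd1* (0.97), a dNTP hydrolase that restricts viruses, *Ogfr* (0.96) and *Ifitm3* (0.96). *Slfn9* was most like *G3bp1* (0.95), a stress granule protein, *Rbmxl1* (0.93) and *Rfwd3* (0.92). Among the members, *Slfn2* and *Slfn8* were most alike (0.89), while *Slfn9* had r between -0.40 and 0.13 with each of the others.

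Within non-cycling monocyte-like cells the members could be set beside markers of other subsets. The 120 RC cells with *Cx3cr1*, a chemokine receptor of patrolling monocytes, held 349 CPM of *Slfn5* (293 to 414) and 211 of *Slfn1* (168 to 262), and the 123 without it held 261 (212 to 317) and 152 (116 to 196). The 79 SAA cells with *Cxcl9*, an interferon gamma-induced chemokine, held 326 CPM of *Slfn5* (272 to 388) and 324 of *Slfn1* (270 to 385), and the 30 without it 336 (243 to 453) and 422 (317 to 551), with intervals that overlap. All 109 non-cycling SAA cells were without *Cx3cr1*, and 242 of the 243 RC cells were without *Cxcl9*. The non-cycling SAA to RC ratios above thus compare pools that differ in these markers, and the part of this in the ratios was not tested.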

How the data were processed

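The deposited values were raw UMI counts per gene and barcode from 10x 5′ v2 libraries. Per the labels they came from Cell Ranger 6.0.1 and the mm10 genome, with no normalization. Depth was 4066589 UMIs in RC and 5592265 in SAA. The 7 members and all gene lists were chosen with earlier results of these data known. Columns were mapped to RC and SAA by the labels, and each pool of 3 mice is 1 library, so no test was run.

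UMIs were summed per library and class in Python 3.11.15 (pandas 2.3.3, numpy 2.4.6, scipy 1.17.1). CPM carry exact Poisson intervals, ratios exact conditional binomial intervals, shares Clopper-Pearson intervals and ratios of ratios Wald intervals where each count was at least 5, all at 95%. Genes with at least 20 UMIs over both pools entered the counts, and a pool at 0 was set to 3 UMIs for a bound. Thinning used 2600 UMIs per cell and seed 11. Genes named were the 7 members, other Slfn rows, the 3 most abundant genes of each list, and the 3 most correlated genes per member on log2(CPM + 10). The values of 1 gene so named are left out. Doublets were not called. Cells with mixed class markers were left out in 1 alternative. Other alternatives changed the cell filter, other cell types, scaling (TMM factors of edgeR 4.0.16 or the median of gene ratios), weighting, depth, cycling rule and minimum of UMIs. The interval and the fold were tested on simulated counts. Figures were drawn with matplotlib 3.10.9. GENCODE coordinates matched 31011 of 31053 genes by identifier.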

Additional observations from a re-analysis of the deposited data

Results flagged for a closer look

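*Slfn5* differed between the classes, with an SAA to RC ratio of 0.936 (0.791 to 1.11) in monocyte-like and 3.83 (2.26 to 6.87) in granulocyte-like cells. The monocyte-like interval includes 1, the ratio was 1.08 in non-cycling and 9.79 in cycling monocyte-like cells, and it was 1.33 over the class with equal shares of cells per cell-cycle bin, so no lower direction was seen. As a quotient, the ratios of the classes gave 4.09 (2.37 to 7.05), an interval of counting error alone. *Slfn8* differed likewise between non-cycling (0.952, 0.643 to 1.40) and cycling (2.09, 1.22 to 3.77) monocyte-like cells, where the non-cycling interval also includes 1.

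The barcodes with under 1000 genes, which entered none of the comparisons except the alternative with no minimum of genes, held Schlafen UMIs too. In the 41 such granulocyte-like barcodes of SAA and 32 of RC the SAA to RC ratio was 12.4 (5.76 to 31.7) for *Slfn4*, 8.16 (2.48 to 42.3) for *Slfn1* and 2.68 (1.47 to 5.10) for *Slfn2*. *Slfn8* had 15 UMIs in SAA and 0 in RC there, at least 5.10-fold higher with RC set to 3 UMIs. In the 36 and 94 monocyte-like barcodes *Slfn1* had a ratio of 3.32 (1.63 to 6.76) from 18 UMIs in each library.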

How the results depend on the processing

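Of 140 recomputed SAA to RC ratios of single members, 134 stayed within the 95% interval of the value given above, 6 fell outside it, and none whose interval excluded 1 crossed 1. Monocyte-like *Slfn5*, whose interval includes 1, ranged from 0.862 to 1.69. With at least 1500 genes and at most 10% mitochondrial UMIs per cell, *Slfn1* became 75.6 in granulocyte-like and 3.69 in monocyte-like cells, and *Slfn5* 1.69 in monocyte-like cells. With equal shares of cells per cell-cycle bin, an alternative chosen after seeing the data, monocyte-like *Slfn5* became 1.33 and *Slfn9* 1.28, and on thinned cells *Slfn9* became 3.11. The cause was not tested. The count of members at least 2-fold higher in SAA monocyte-like cells fell from 2 to 1 with clear classes only and to 1 with a minimum of 100 UMIs, because *Slfn3* no longer reached the minimum. It was 3 under TMM factors or the median of gene ratios, where *Slfn9* was above 2, and 3 of 6 on thinned cells, where *Slfn1*, *Slfn4* and *Slfn9* were above 2 and *Slfn3* was under the minimum. TMM factors shifted monocyte-like ratios by 0.10 on the log2 scale. The granulocyte-like count of 5 held under every alternative run. The count of members at least 2-fold lower in cycling granulocyte-like cells went from 1 to 0 (thinned) and 2 (cycling at 5 or more against 0) in RC, and from 4 to 2 (thinned) in SAA. The thinned bins were set from thinned counts and held other cells. With 1 library per condition no replicate could be left out, and no paired analysis was possible because each condition had 1 library. Depth limits *Slfn3* in every class and all members in the 21 non-cycling RC granulocyte-like cells.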
